A study of Mus musculus with 2 samples.

Results

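The genes described here are 10 transcripts of neutrophil granules, neutrophil cytosol and the neutrophil surface: S100a8, S100a9, Lcn2, Ly6g, Mpo, Camp, Ltf, Ngp, Retnlg and Csf3r. The 10 genes were listed with earlier results of these data known. Every non-control array probe in both scanner files that carried one of these gene names was then taken. This gave 12 of 55680 usable probes, for 10 of 34740 gene names. The arrays held RNA of skeletal muscle from male CD2F1/Slc mice, 11 weeks old. The C26 sample came from the colon 26 model of cancer cachexia, in which 1000000 C26 carcinoma cells in 100 µL of PBS were placed under the skin of the flank. The control sample came from mice or a mouse given PBS in the same way, so both groups had an injection. There was 1 array per group, and whether it held RNA of 1 mouse or a pool, which muscle was taken and how many days had passed are not stated in the labels.

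Neutrophils are short-lived white cells that carry their antimicrobial proteins in granules filled at successive stages of maturation in the marrow. Azurophil granule genes such as Mpo are transcribed early, those of specific granules such as Ltf, Camp and Ngp later, and S100a8 and S100a9 stay abundant as RNA in mature blood neutrophils. S100a8, S100a9 and Lcn2 are not restricted to neutrophils: myeloid cells make all 3, and epithelia, liver and other tissues make Lcn2 in inflammation.

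With 1 array per group no test was possible, and every fold below compares a pair of arrays, not the conditions. A probe is called measured where the scanner software marked it as well above background on both arrays. Ratios are C26 over control after each array was scaled to its own 75th percentile of signal, which was 249 on the C26 array and 262 on the control array. The error beside a log2 ratio is the scanner's own error for the spots and leaves out differences between mice. Among probes printed at least 8 times with signals of 20 to 100, the median standard deviation between copies was 0.15 on the C26 array and 0.18 on the control array on the log2 scale, and with signals of 100 to 1000 it was 0.07 on both. Each member probe was printed once per array. In whole tissue, more cells of a type and more RNA per cell cannot be told apart.

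Of the 10 genes, 6 were measured on both arrays, 1 (Retnlg) passed the background flag in C26 only, and 3 (Mpo, Ltf and Ngp) were not well above background on either array, as were 38% of all gene names. S100a8, S100a9 and Lcn2 were at least 2-fold higher in the C26 array, which is 3 of the 6 measured genes, where 1.25% of all 19668 measured genes passed this size. None of the 6 was at least 2-fold lower, against 1.15% of all measured genes. At a size of 1.5-fold the same 3 were higher (4.37% of all measured genes) and none was lower (4.83%), and at 3-fold S100a8 and S100a9 were higher (0.346%) and none was lower (0.229%). The median log2 ratio of the 6 was 0.84, beside 0.04 over all measured genes, and 4 of the 6 were above 0, as were 56.5% of all measured genes. Because the genes were listed with earlier results of these data known, these counts and the median describe them and support nothing further. The name of the group as granule transcripts is only partly borne out by signal, since of the 5 granule protein genes (Mpo, Camp, Ltf, Ngp and Lcn2) 3 had no probe well above background.

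**Figure D1:**
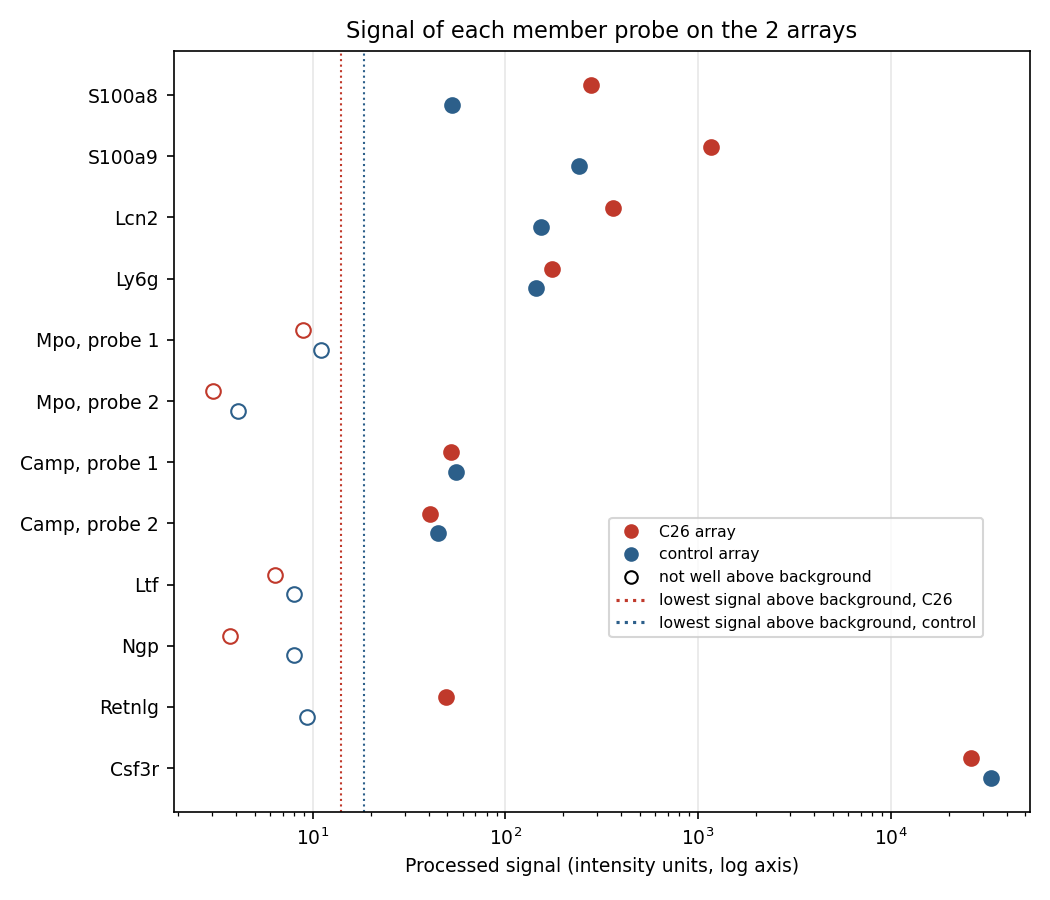
Processed signal (intensity units, log axis) of all 12 member probes, with the C26 array in red above the control array in blue; open circles are spots not well above background and dotted lines mark the lowest signal called well above background, 14.1 on the C26 array and 18.5 on the control array. The points of S100a8, S100a9 and Lcn2 lie clearly apart between the arrays, those of Ly6g, Camp and Csf3r lie close together, and the probes of Mpo, Ltf and Ngp lie left of both lines.

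S100a8 and S100a9 encode the calcium-binding partners that form calprotectin, a complex that makes up much of the neutrophil cytosol, binds zinc and manganese and acts on Tlr4 when released. The S100a8 probe lies at chr3:90473778-90473837 on the plus strand of mm9, and its sequence is shown because it gave the highest ratio of the measured members and shares no stretch of 20 bases with a probe of any other gene.
S100a8 probe: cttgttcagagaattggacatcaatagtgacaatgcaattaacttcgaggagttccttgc
Its signal was 278 on the C26 array and 53.1 on the control array, 5.51-fold higher in C26 after scaling, a log2 ratio of 2.46 (error 0.24). This ranked 9 among the 19668 measured genes. The S100a9 probe, at chr3:90496573-90496632 on the minus strand, had a signal of 1171 on the C26 array and 242 on the control array. It stood 5.09-fold higher in C26, at 2.35 on the log2 scale (error 0.21), rank 18. With this processing both partners of the complex stood about equally far apart between the arrays. Their log2 ratios were 10.5 times (S100a8) and 11.4 times (S100a9) their spot error. The likeness depended on the background correction. With normexp, an alternative that draws dim signals together, S100a8 stood at 1.58 and S100a9 at 2.06. The probes lie 22.7 kb from each other.

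Because these neighbouring genes were both higher in C26, the 250 bases before each annotated start were read from RefSeq promoter windows (GRCm38.p6). The S100a8 window is chr3:90668821-90669070 on the plus strand and the S100a9 window chr3:90695722-90695971 on the minus strand. Capitals mark matches on either strand to TTNNGNAA, a core written for C/EBP factors, which drive myeloid genes, and to TATAAA, the TATA box.
S100a8 promoter: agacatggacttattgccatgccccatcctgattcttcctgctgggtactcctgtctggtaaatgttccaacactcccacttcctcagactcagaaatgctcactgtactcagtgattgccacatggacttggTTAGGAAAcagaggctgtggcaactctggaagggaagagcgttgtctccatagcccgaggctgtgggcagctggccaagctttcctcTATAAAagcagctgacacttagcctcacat
S100a9 promoter: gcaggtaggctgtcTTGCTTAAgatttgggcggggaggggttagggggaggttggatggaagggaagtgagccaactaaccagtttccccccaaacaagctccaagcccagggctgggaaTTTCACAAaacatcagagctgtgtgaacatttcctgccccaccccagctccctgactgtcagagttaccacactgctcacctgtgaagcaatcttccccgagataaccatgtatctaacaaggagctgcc
The S100a8 window held TTAGGAAA 117 bases before the start and TATAAA 30 bases before it. The S100a9 window held TTGCTTAA at 236 bases and TTTCACAA at 130 bases before the start, and no TATAAA. Both of these S100a9 stretches match TTNNGNAA on the opposite strand, as reverse complements of the letters shown. On either strand, TTNNGNAA was found in windows of 7 of the 10 members, among them Ltf and Ngp, and in 36.8% of all 32851 windows of this length. TATAAA was in 2 members and 12.4% of windows, the NF-kB motif in 2 members and 17.6%, TTCNNNGAA (for STAT factors) in 0 members and 7.02%, and TGANTCA (for AP-1) in 0 members and 6.75%. These are letter matches, not binding sites. Of the 6 measured members, the 3 higher ones held TTNNGNAA and so did Ly6g, while Camp and Csf3r held none. Ltf, Ngp and Retnlg windows held it too, but these genes were not measured on both arrays, so they cannot be placed on either side. Whether the motif goes with the ratios was not tested.

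Lcn2 encodes lipocalin 2, a protein of specific granules that withholds iron from bacteria by binding their siderophores and is also an acute-phase product of liver and other tissues. Its probe (chr2:32240199-32240258, minus strand, mm9) had a signal of 362 on the C26 array and 153 on the control array. The ratio was 2.49-fold higher in C26, 1.32 on the log2 scale (error 0.21), rank 115. Its value was thus below that of both S100 genes and above that of every other measured member.

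Retnlg encodes resistin-like gamma, a small secreted protein found mostly in marrow and blood granulocytes of mice. Its probe (chr16:48874468-48874527) had a signal of 49.1 on the C26 array, well above background, and 9.30 on the control array, not well above background. Set against the lowest control signal called well above background, 18.5, Retnlg was at least 2.79-fold higher in C26. This bound holds for the scanner's processed signal. With normexp background correction, an alternative that draws dim signals together, its log2 ratio was 0.69, under 2-fold and below the bound. Of all 34740 gene names, 4.15% passed the background flag in C26 only and 1.02% in control only. Of the names that passed in C26 only, 7.07% had a bound of at least 2-fold.

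Ly6g encodes the surface antigen recognised by antibodies that mark mouse neutrophils. Its signal was 175 on the C26 array and 144 on the control array, 1.28-fold higher in C26, a log2 ratio of 0.36 (error 0.21), rank 2472. This is 1.69 times its spot error, and the arrays lie much closer than for S100a8 or S100a9. The probe (chr15:74989023-74989082, plus strand, mm9) shares a run of 28 bases, in capitals, with a probe for predicted pseudogene 10238, another sequence of the Ly6 cluster on chromosome 15, so the source of its signal is uncertain.
Ly6g probe: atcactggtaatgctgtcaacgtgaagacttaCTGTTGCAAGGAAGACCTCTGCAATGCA
Pseudogene probe: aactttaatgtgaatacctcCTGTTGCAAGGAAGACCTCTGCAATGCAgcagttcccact
The pseudogene probe had a signal of 1116 on the C26 array and 633 on the control array, a log2 ratio of 0.89 (error 0.20). Ly6c1, an antigen of monocytes and of endothelium encoded in the same cluster, had 23840 on the C26 array and 14185 on the control array, at 0.82. Whether RNA of these relatives enters the Ly6g signal was not tested.

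Camp encodes cathelicidin, whose cleaved peptide kills bacteria, and is a specific granule gene. Its first probe (chr9:109749911-109749970, minus strand, mm9) had a signal of 52.1 on the C26 array and 55.4 on the control array, a log2 ratio of -0.02 (error 0.24). The second probe had 40.8 on the C26 array and 44.9 on the control array, -0.07 (error 0.27). Both probes thus placed the arrays within their spot error. They overlap by 50 bases and differ there by 2 substitutions, G6A and C10T (counted from the 5′ base of the second probe, its base first, then the first probe's base), shown in capitals over the first 30 shared bases.
Camp second probe: cagccGgagCagtaggcctgccttggcctg
Camp first probe: cagccAgagTagtaggcctgccttggcctg
Because they overlap, they do not count as independent readings of the gene.

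Mpo encodes myeloperoxidase, the main enzyme of azurophil granules, and had 2 probes. The first (chr11:87617840-87617899) gave 8.90 on the C26 array and 11.0 on the control array, and the second (chr11:87615121-87615180) gave 3.02 on the C26 array and 4.09 on the control array, values the software had put in as surrogates for spots too low to measure. Ltf, lactoferrin, an iron-binding protein of specific granules (chr9:110942873-110942932), gave 6.39 on the C26 array and 7.98 on the control array. Ngp, neutrophilic granule protein (chr9:110324266-110324814, a span that includes bases between the parts of the probe), gave 3.71 on the C26 array and 7.98 on the control array. All these signals lie below 14.1 and 18.5, the lowest signals well above background on the C26 array and the control array, so no fold is given for these 3 genes. Mpo, Ltf and Ngp were therefore not detectable in either muscle sample with these probes, which does not show that they were absent.

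Csf3r encodes the receptor for granulocyte colony-stimulating factor, the cytokine that drives neutrophil production. Its probe (chr4:125721478-125721537, plus strand, mm9) had a signal of 26235 on the C26 array and 33121 on the control array, 1.20-fold lower in C26, -0.26 on the log2 scale (error 0.20). That signal was brighter than 98.2% of probes on the C26 array and 98.6% on the control array. The last 30 bases of the probe are also the last 30 bases of a probe for the transcript model TC1653005, and they read as the start of B1, a short interspersed repeat with many copies in the mouse genome.
Csf3r probe, last 30 bases: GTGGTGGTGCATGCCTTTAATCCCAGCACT
TC1653005 probe, last 30 bases: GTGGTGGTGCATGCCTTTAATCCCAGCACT
TC1653005 had 33754 on the C26 array and 42818 on the control array, a log2 ratio of -0.27. Predicted gene 1305, whose probe shares 20 bases in the same orientation, had 6019 on the C26 array and 7791 on the control array, -0.30. A probe of Nxnl1 shares 24 bases in the opposite orientation and had 253 on the C26 array and 237 on the control array, 0.17. The Csf3r value is therefore uncertain as a level or ratio of this receptor, and how much of it comes from repeat-bearing RNA was not tested. No probe of the other members except Ly6g shared 20 bases with a probe of another gene.

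**Figure D2:**
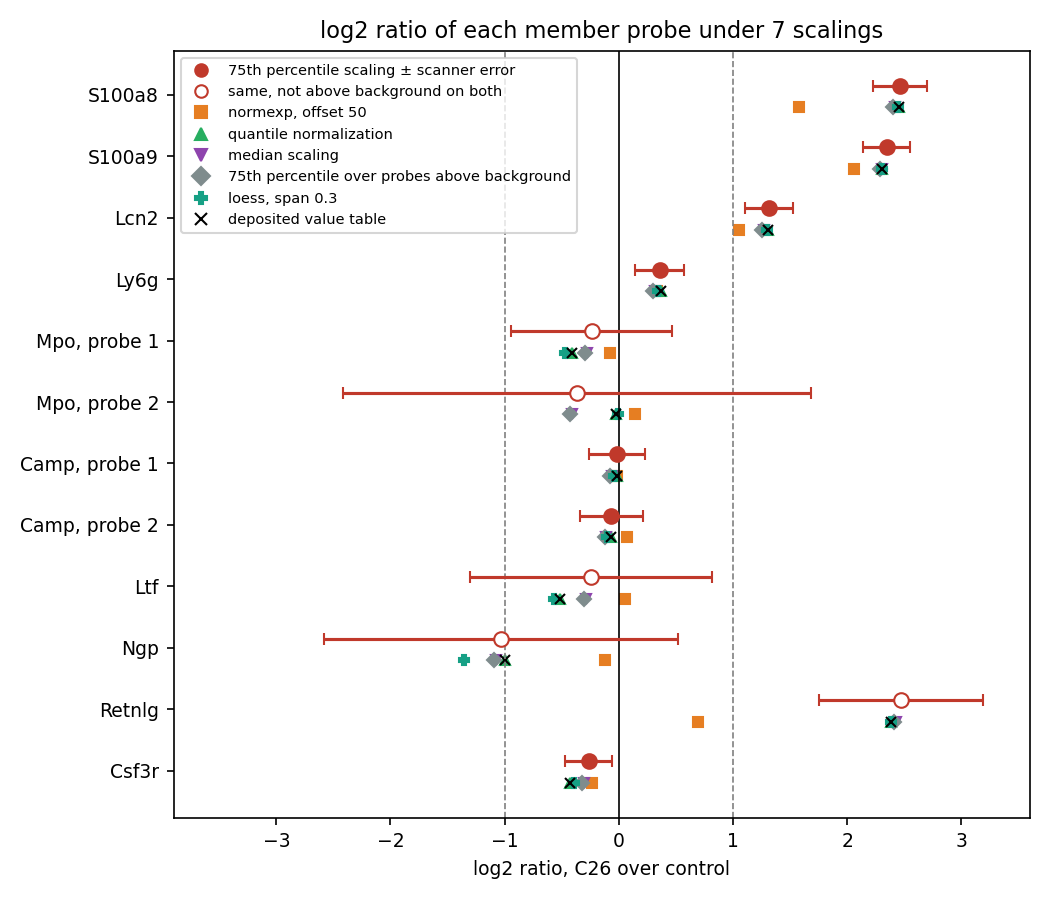
Log2 ratio of C26 over control for the 12 member probes; red circles with bars show 75th percentile scaling and the scanner's spot error (open where a probe was not well above background on both arrays), the smaller symbols show the other background corrections, scalings and the deposited table, and dashed lines mark 2-fold. S100a8, S100a9 and Lcn2 lie right of the 2-fold line under every scaling drawn, with normexp correction giving the lowest values (1.58, 2.06 and 1.05), Ly6g, Camp and Csf3r lie between the lines, and Retnlg stands at 0.69 under normexp.

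No other measured gene of the neutrophil lists reached the ratio of S100a8 or S100a9. The lists of neutrophil, S100 and related genes held 58 genes besides the members, and 27 were measured. Of these 27, 1 was at least 2-fold higher in C26, 1 was at least 2-fold lower and 8 were above 0, with a median log2 ratio of -0.16. Among all measured genes, 1.25% were at least 2-fold higher, 1.15% at least 2-fold lower and 56.5% above 0. The higher one was Chil3, a chitinase-like protein of neutrophil precursors and macrophages, with 87.1 on the C26 array and 32.5 on the control array, 1.49 (error 0.28). The lower one was Clec4d, a C-type lectin receptor of myeloid cells, with 32.9 on the C26 array and 112 on the control array, -1.69 (error 0.25).

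Among azurophil granule genes, Elane (neutrophil elastase) had 832 on the C26 array and 876 on the control array, a log2 ratio of -0.0018, and Ctsg (cathepsin G) had 40.3 on the C26 array and 46.5 on the control array, -0.13. Ms4a3, a membrane protein of granulocyte precursors, was well above background on the control array alone. It had 16.02 on the C26 array and 45.1 on the control array. The plain ratio of these signals was 2.68-fold lower in C26 (log2 ratio -1.42, error 0.38), which is not a minimum. So the azurophil list had no member measured above a ratio of 1. In the specific granule list, Lyz2 (lysozyme, shared with macrophages) had 281 on the C26 array and 582 on the control array, -0.98 (error 0.20), and Cybb, the catalytic subunit of the phagocyte oxidase, stood at -0.70. Cebpe, the factor that drives specific granule genes, the collagenase Mmp8, the gelatinase Mmp9 and the histone-citrullinating enzyme Padi4 were not well above background on either array.

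Besides Retnlg, 7 of the 58 genes (12.1%) passed the background flag in C26 only, where 4.15% of all gene names did. Pglyrp1, a granule protein that binds bacterial peptidoglycan, had 45.1 on the C26 array and 10.6 on the control array, at least 2.56-fold higher in C26. It was the one of the 7 with a bound past 2-fold. The bounds in this paragraph hold for the processed signal, and no normexp values are given for these genes. Stfa3, a cytosolic cysteine protease inhibitor with close relatives, had 37.8 on the C26 array and 20.4 on the control array. Its plain ratio was 1.95-fold higher in C26 (log2 ratio 0.96, error 0.37), which is not a minimum. The cytokine Il1b had 27.1 on the C26 array and 6.10 on the control array, at least 1.54-fold. The chemokine Cxcl1 had a bound of at least 1.39-fold, Stfa2l1 1.16-fold and the Cxcl1 receptor Cxcr2 1.05-fold, so the signals of Stfa2l1 and Cxcr2 were close to the lowest that count as above background. The control array's limit (18.5) was also higher than that of the C26 array (14.1), a difference that touches every such count.

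**Figure D3:**
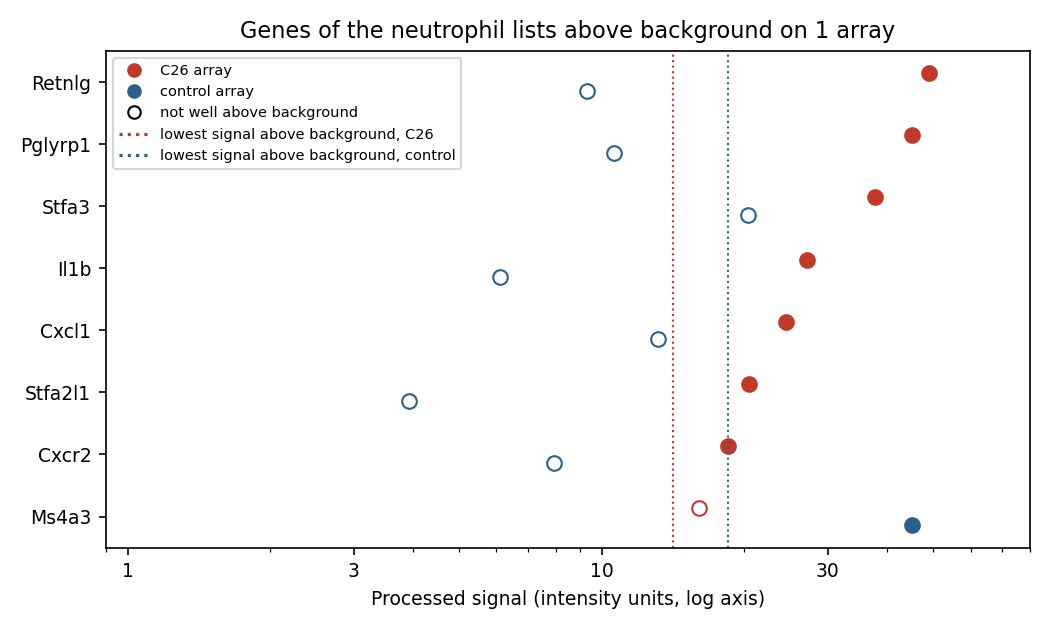
Processed signal (intensity units, log axis) of 8 neutrophil and related genes, Retnlg included, that were well above background on 1 array only; filled circles are above background, open circles are not, and dotted lines mark the lowest signal above background on each array. For 7 genes the filled point is the C26 array, with Retnlg (49.1) and Pglyrp1 (45.1) brightest there, and for Ms4a3 it is the control array (45.1).

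Of the other surface genes, the chemokine receptor Cxcr4, which holds granulocytes in marrow, stood at -0.69 and Trem1, an amplifying receptor of neutrophils and monocytes, at 0.19. Fpr1, Fpr2, Cd177 and Clec4e were not well above background on either array. Of the receptors for the members' products, Tlr4, a receptor for calprotectin, had 91.3 on the C26 array and 94.4 on the control array, 0.02 (error 0.16). Its other, dimmer probe gave -0.33. The scavenger receptor and fatty acid transporter Cd36 had 4436 on the C26 array and 2992 on the control array, 0.64, and Slc22a17, a lipocalin 2 receptor, had 343 on the C26 array and 482 on the control array, -0.42. Ager, a further calprotectin receptor, and Csf3, the ligand of Csf3r, were not well above background on either array.

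The other S100 genes did not show the ratios of S100a8 and S100a9. Of 15 further family members, 11 were measured, none reached 2-fold in either direction, 2 were above 0 (56.5% of all measured genes) and the median was -0.16. S100a2 (0.60) and S100a5 (0.58) were the 2 above 0. S100a13 (-0.02), S100a16 (-0.04), S100a1 (-0.05, a calcium sensor of striated muscle), S100a10 (-0.16) and S100a11 (-0.17) lay within their spot error of 0. S100a6 stood at -0.33, S100a3 at -0.35, the glial gene S100b at -0.52 and S100a4, of fibroblasts and macrophages, at -0.83 (error 0.20). S100a4 had 1323 on the C26 array and 2478 on the control array, and its second probe gave -0.76. Of the resistin family, Retn, the fat cell hormone, had 1192 on the C26 array and 1228 on the control array, 0.03, and Retnla, a product of macrophages and fat tissue, had 4279 on the C26 array and 6600 on the control array, -0.55.

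**Figure D4:**
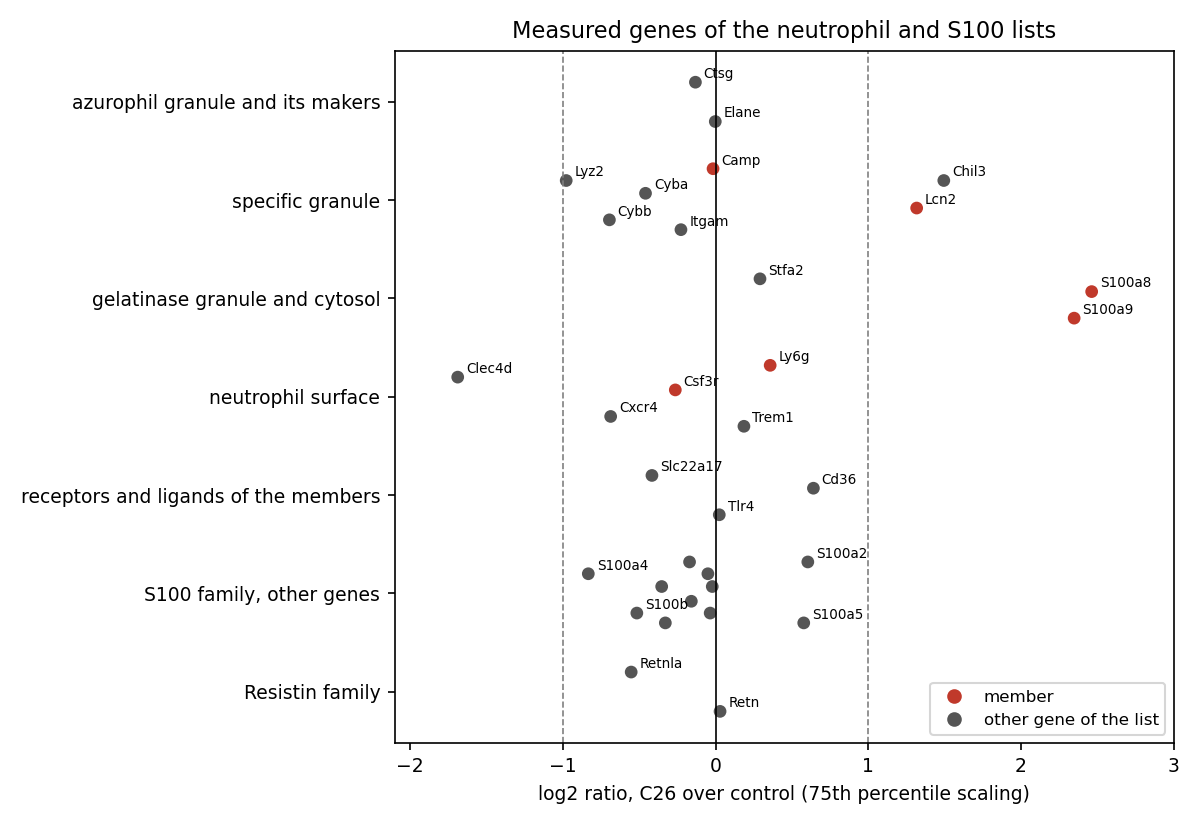
Log2 ratio of C26 over control of each measured gene in the neutrophil, S100 and related lists, members in red and other genes in grey, with dashed lines at 2-fold. S100a8 (2.46) and S100a9 (2.35) lie farthest right, followed by Chil3 (1.49) and Lcn2 (1.32), while the 11 other S100 genes lie between -0.83 and 0.60 and Clec4d (-1.69) lies farthest left.

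Markers of other cell types differed between the arrays as well. The erythroid list had 4 of 7 measured genes at least 2-fold higher in C26 and none lower, with a median of 1.37 and a summed signal of 710920 on the C26 array and 380326 on the control array. Slc4a1, the anion exchanger of red cells, stood at 2.43 and Alas2, the first enzyme of red cell haem synthesis, at 2.31. The globin chaperone Ahsp passed the background flag in C26 only and was at least 6.20-fold higher there, a bound for the processed signal. Epb42, Klf1 and Rhd were not well above background on either array. The monocyte and macrophage list had all 12 of its genes with a probe measured, with 0 at least 2-fold higher, 2 lower (Itgax at -4.26 and Cd68 at -1.35) and a median of -0.16. Its summed signal was 32496 on the C26 array and 26930 on the control array. Ly6c1, also an antigen of endothelium, alone gave 23840 of this on the C26 array and 14185 on the control array. Only 2 of the 12 genes were above 0, so the higher sum does not describe the list. Of the platelet list, 3 of 6 genes were measured, none at 2-fold, with a summed signal of 1869 on the C26 array and 1974 on the control array. Gp9 passed the background flag in C26 only, and its plain ratio, not a minimum, was 5.12-fold higher in C26 (error 0.38 log2). Of the 11 skeletal muscle genes all were measured and none reached 2-fold, with a median of 0.05. No measured gene of the lymphocyte list (7 of 10 measured, median -0.08), the mast cell, basophil and eosinophil list (4 of 11, -0.48), the marrow progenitor list (3 of 4, -0.77) or the keratinocyte list (3 of 5, -0.22) passed 2-fold upward in C26. At least 2-fold lower were 1 gene of the lymphocyte list, the granzyme Gzma (-1.07), and 1 of the mast cell list, the chymase Cma1 (-1.04), and none of the other 2 lists. The part of blood or other cells in the member values was not tested.

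The genes whose ratio was nearest to the mean of S100a8 and S100a9, 2.41, were Kcnf1, a potassium channel subunit (2.41), the thioesterase Acot1, which has near-identical relatives (2.42), and Slc4a1 (2.43). With 2 arrays such likeness rests on a single difference per gene.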

How the data were processed

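Total RNA of mouse skeletal muscle was labelled with Cy3 and hybridised to 1 one-colour Agilent array per group, per the labels. The deposited scanner values are linear spot intensities; per the file headers they were made by Agilent Feature Extraction 10.7.1.1 (the submitters' processing notes list 9.5.1.1), with background subtracted and surrogates for low spots (25.6% of non-control spots on the C26 array, 31.9% on the control array). A deposited table of 1 intensity per probe lay within 0.01 log2 of quantile-normalized processed signal for 99.9% of probes and served as an alternative; how the authors made it is not stated in the labels.

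Outlier spots were left out (91 on the C26 array, 110 on the control array), copies averaged, and each array's 75th percentile of log2 signal subtracted. No spot was saturated. The brightest probe stood for each gene. Where 1 array was not well above background, the bound was set against that array's lowest value passing the flag, or against the dim probe's value if higher. In the latter case (Ms4a3, Stfa3 and Gp9 among the genes named) it equals the plain ratio and is not a minimum. Every bound holds for the processed signal only, and another background correction can give a lower ratio. The reference table (GRCm38.p6) named 31381 probes, and 24299 kept their file names. Probe positions are on mm9. The precision is limited by the 1 array per group, so no test was run. The members and gene lists were chosen with earlier results of these data known, and the promoter motifs and the 20-base comparison between probes were chosen after seeing the data. Genes named with a ratio are all members, every measured S100 gene, up to 2 highest and 2 lowest measured genes of each list, and the 3 genes nearest in ratio to S100a8 and S100a9. Outside this rule, and chosen after their values were seen, are examples of listed genes above background on 1 array or on neither, and genes whose probes share a stretch with another gene's probe. The values of 2 listed genes are not reported here. Alternatives were other background corrections, scalings, filters, probe rules and fold thresholds. Python 3.11.15 with numpy 2.4.6, pandas 2.3.3 and matplotlib 3.10.9, and R 4.3.3 with limma 3.58.1, were used. The 75th percentile scaling was tested on simulated data with known folds.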

Additional observations from a re-analysis of the deposited data

How the results depend on the processing

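No paired analysis was possible because each group has 1 array, and for the same reason no array could be left out. Under other scalings, the deposited table, other filters and the mean over probes, 43 values on the S100 genes, counts and medians stayed near the reported ones (ratios and medians within their error, counts within 1.5 times) and 5 moved. Some of the 43 could not move. S100a8 and S100a9 have 1 probe each, so the mean over probes repeats their values, and the stricter filter kept the same 6 members. The deposited table nearly repeats quantile normalization. With normexp background correction (offset 50), which pulls dim signals together, S100a8 stood at 1.58 and S100a9 at 2.06, and Lcn2 at 1.05 and Retnlg at 0.69. S100a8, S100a9 and Lcn2 remained at least 2-fold higher under each scaling run, and at 3-fold 2 members passed. With no filter on dim probes, 4 members were at least 2-fold higher and 1 (Ngp, at -1.03) was 2-fold lower or more, and all 10 had a median of 0.17; the added genes are those not well above background. Without Csf3r, whose probe carries the repeat stretch, an alternative chosen after seeing the data, the median of the remaining 5 was 1.32. Across the scalings and background corrections Ly6g lay between 0.30 and 0.37, Csf3r between -0.43 and -0.23, and the second Camp probe between -0.12 and 0.07, so its sign depended on the setting. The median of all measured genes lay between -0.02 and 0.04. Low signal over background limits Mpo, Ltf, Ngp and Retnlg most.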

Other observations

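Repeat-like probes also occur among the list genes. Of the 19668 measured genes, 727 (3.70%) had a brightest probe that shares 20 bases with at least 3 probes of other genes, and among the listed genes these were Csf3r, Itgam, Trem1 and Hemgn. For Itgam, the integrin alpha M chain of neutrophils and macrophages, the brightest probe shares a stretch with 72 probes of other genes and had 5571 on the C26 array and 6855 on the control array, -0.23. The other Itgam probes share none. One had 94.7 on the C26 array and 116 on the control array, -0.22, and the other had 48.8 on the C26 array and 50.6 on the control array, 0.02. The probe of Trem1 shares a stretch with 8 and that of Hemgn, an erythroid gene, with 75 probes of other genes.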
